A study of Mus musculus with 2 samples.

Results

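Levels of 10 genes of the transforming growth factor beta (TGF-β) pathway were compared between the cell classes of the adult mouse mammary epithelium. They were chosen by symbol from the 27998 gene rows of the deposited matrices and comprised 3 ligands (Tgfb1, Tgfb2 and Tgfb3), 3 receptors (Tgfbr1, Tgfbr2 and Tgfbr3), 2 inhibitors (Smad7 and Bambi) and 2 secreted CCN proteins (Ctgf and Cyr61). All 10 were present as a single row and had counts in the total epithelial library. The study profiled single cells of untreated adult FVB/NJ female mice, an inbred strain, at 10 weeks of age on the 10X Chromium platform, which tags every RNA molecule near its 3′ end so that it can be counted once. Total epithelial cells were sorted as Lin-CD24+ and basal cells as Lin-CD29hiCD24+, where the Lin gate removes blood and endothelial cells. Each of the 2 libraries was made from cells pooled from 4 mice, so the spread between mice is unknown and no difference has a replicate check.

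TGF-β is secreted in a latent form that is held in the extracellular matrix until it is released. Active ligand joins the type II receptor Tgfbr2 to the type I receptor Tgfbr1, which then phosphorylates Smad2 and Smad3. In the mammary gland TGF-β is best known as a restraint on ductal growth and branching. Smad7 and Bambi oppose the signal in the cell, and Ctgf and Cyr61 are matricellular proteins that respond to TGF-β and to the YAP/TAZ pathway.

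The 3302 total epithelial cells were divided by the counts of a few lineage genes. A cell with 10 or more counts of Krt5, Krt14 and Acta2 together was called basal, and a cell with 10 or more counts of Prlr, Stc2 and Gpx3 was called mature luminal (ML). Of the other cells, those with 3 or more counts of Krt8, Krt18 and Krt19 were called luminal progenitor (LP), and the rest were called stromal. This gave 1280 basal cells with a median of 1820 counts per cell, 766 LP cells (2483.5 counts), 1133 ML cells (3403 counts) and 97 stromal cells (1184 counts). A further 26 cells met the basal and the ML rules at once and were held apart. Near the thresholds lay 76 cells with 5 to 14 basal gene counts and 212 with 5 to 14 ML gene counts. The sorted basal library held 4771 cells with a median of 487 counts, and 28 cell barcodes occurred in both libraries.

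The class names were compared with marker genes, leaving out those that the rule used. The 7 remaining basal markers summed to 18100 CPM (counts per 1000000 counts of the class) in basal cells, 128 CPM in LP cells and 55.7 CPM in ML cells. The 7 remaining LP markers summed to 13251 CPM in LP, 1293 CPM in ML and 434 CPM in basal cells, and the 6 remaining ML markers to 7610 CPM in ML, 764 CPM in LP and 75.4 CPM in basal cells. With the keratins Krt8, Krt18 and Krt19 included, the LP markers hardly separated the luminal classes, at 39962 CPM in LP and 34940 CPM in ML cells. The stromal class was mixed. Of its 97 cells, 34 had collagen counts, 17 had endothelial genes, 10 had pericyte genes and 6 had Schwann cell genes. The remaining 30 carried Acta2 at 2664 CPM and Krt14 at 1259 CPM, below the basal threshold in each cell. The ML class included 10 cells with fewer than 3 keratin counts, of which 9 had collagen counts. Of 6 immune markers, Ptprc, Cd52, Tyrobp and Cd3e were at 0 in every class and in the sorted basal library, and the other members, Cd74 and Lyz2, brought the summed level to between 1.69 and 44.5 CPM in the epithelial classes, 16.1 CPM in the sorted library and 450 CPM in the stromal class, where all 72 counts were of Lyz2.

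A level is given below as CPM of the summed counts of a class, with an exact Poisson 95% interval in brackets. A ratio has an exact 95% interval conditional on the counts of both classes. Both kinds of interval cover counting error only. A gene was called higher or lower when its CPM differed 2-fold or more between classes that together held 20 or more counts of it. With 1 library, none of these calls is a statistical test, and cells were not used as replicates.

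The classes of the total epithelial library differed in which of the pathway genes were highest. Basal cells had the highest levels of the receptors Tgfbr1 and Tgfbr3, both inhibitors and Ctgf, LP cells had the highest level of Tgfb3, and ML cells had more Tgfb1 and Tgfbr2 than the other epithelial classes. Against LP cells, 5 of the 10 genes were higher in basal cells (Tgfbr1, Tgfbr3, Smad7, Bambi and Ctgf) and 3 were lower (Tgfb2, Tgfb3 and Cyr61). For comparison, 22.3% of the 9604 genes with enough counts were higher in basal cells and 12.3% were higher in LP cells. Against ML cells, 6 genes were higher in basal cells (Tgfb2, Tgfbr1, Tgfbr3, Smad7, Bambi and Ctgf) and 2 were lower (Tgfb1 and Tgfbr2), beside 20.4% and 19.6% of all 10403 genes. Between the luminal classes, 5 genes were higher in LP cells (Tgfb2, Tgfb3, Bambi, Ctgf and Cyr61), against a background of 10.5%, and 2 were higher in ML cells (Tgfb1 and Tgfbr2), against 17.9%. Tgfbr3 had too few counts for that comparison, which was made for the other 9. The call for Ctgf rested on 16 LP and 9 ML counts and turned to a log2 ratio of -0.27 when the 26 cells of both rules were put with ML, which left 4 genes higher in LP cells. The median log2 ratio over all genes was 0.23 for basal against LP cells and -0.29 for LP against ML cells, and with TMM factors, which remove this shift, 0 genes were 2-fold higher in ML than in LP cells. With class thresholds of 20 counts instead of 10, the 3 genes higher in LP than in basal cells became 1, and the 2 higher in ML than in basal cells became 1.

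**Figure D1:**
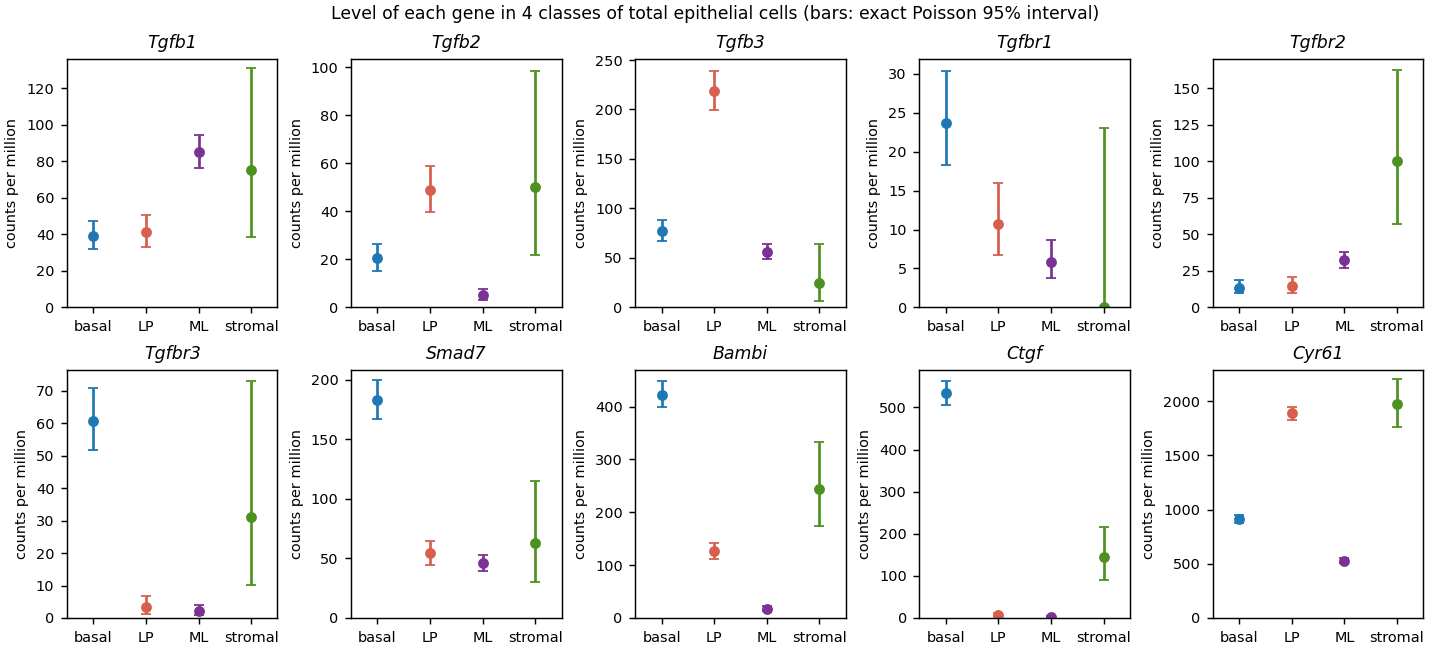
Level of each of the 10 genes (CPM, linear axis from 0) in the basal, LP, ML and stromal classes of the total epithelial library, with exact Poisson 95% intervals as bars. Tgfb3 peaks in LP cells at 219 CPM, Ctgf in basal cells at 533 CPM, and Tgfbr2 in the stromal class at 100.02 CPM, where intervals are wide.

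The 3 ligand genes differed in where they were highest. Tgfb1 encodes the founding member of the family (chromosome 7, 25687002 to 25705077, + strand, GRCm38). It was present at 84.9 CPM (76.3 to 94.3) in ML cells, 75.0 CPM (38.8 to 131) in the stromal class, 41.2 CPM (33.1 to 50.7) in LP cells and 38.8 CPM (31.7 to 47.1) in basal cells. The LP and basal levels of Tgfb1 were indistinguishable, at a ratio of 0.942 (0.702 to 1.27), and the ML level was 2.19-fold that of basal cells (1.75 to 2.75). A count of Tgfb1 was found in 25.3% of ML cells, 9.79% of LP cells and 6.95% of basal cells. After every cell was thinned to 802 counts, the lowest total of the library, these shares were 6.97%, 1.96% and 3.36%.

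Tgfb2 had the opposite order in the luminal classes (chromosome 1, 186622792 to 186705989, - strand). Its level was 48.6 CPM (39.8 to 58.9) in LP cells, 20.4 CPM (15.3 to 26.6) in basal cells and 5.08 CPM (3.15 to 7.77) in ML cells. The LP level was thus 9.57-fold the ML level (5.95 to 16.1), on 105 and 21 counts. The ML level was 10.4% of the LP level, close to that of the LP genes Csn3 (9.31%) and Wfdc18 (8.28%). The source of this residue was not tested. In the stromal class Tgfb2 rested on 8 counts, at 50.01 CPM (21.6 to 98.5), an interval that holds the LP level.

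Within the total epithelial library, Tgfb3 was the ligand with the clearest LP preference (chromosome 12, 86056745 to 86079041, - strand). Its level was 219 CPM (199 to 239) in LP cells, 76.9 CPM (66.7 to 88.2) in basal cells, 56.1 CPM (49.1 to 63.8) in ML cells and 25.0 CPM (6.81 to 64.0) in the stromal class. The LP level was 2.84-fold the basal level (2.41 to 3.37) and 3.90-fold the ML level (3.32 to 4.58). A count was found in 36.6% of LP cells, 15.9% of ML cells and 11.5% of basal cells. At equal depth LP cells kept the highest share at 14.6%, while the intervals of basal cells (4.45%) and ML cells (4.41%) overlapped. The basal and ML levels differed 1.37-fold (1.13 to 1.66), short of the 2-fold limit.

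The promoters of Tgfb1 and Tgfb2 are shown because these ligands ran in opposite directions between LP and ML cells. The sequences are from RefSeq (GRCm38.p6) and run 5′ to 3′ from 250 bases before to 50 bases after the start site, at chr7:25686752-25687051 (+ strand) and chr1:186705940-186706239 (- strand). Capitals mark a match to the SMAD-binding letters CAGACA on either strand.
Tgfb1: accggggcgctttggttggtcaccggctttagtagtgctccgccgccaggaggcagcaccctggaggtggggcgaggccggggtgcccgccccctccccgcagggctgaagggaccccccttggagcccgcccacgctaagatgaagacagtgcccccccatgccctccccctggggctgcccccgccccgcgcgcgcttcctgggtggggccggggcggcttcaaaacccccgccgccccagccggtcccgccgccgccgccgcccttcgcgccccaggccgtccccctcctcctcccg
Tgfb2: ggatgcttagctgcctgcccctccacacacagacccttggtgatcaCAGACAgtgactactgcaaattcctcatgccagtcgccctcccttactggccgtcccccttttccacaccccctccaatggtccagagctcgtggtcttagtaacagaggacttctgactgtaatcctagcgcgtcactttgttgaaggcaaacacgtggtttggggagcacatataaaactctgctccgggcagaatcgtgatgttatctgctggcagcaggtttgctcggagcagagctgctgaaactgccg
The Tgfb1 window had 77% G and C and no match. The Tgfb2 window had 54.3% G and C and 1 match, which starts at position -204 from the start site. These letters occur in 21.0% of the 32851 promoters of the table, so a match is common and is given only as a description.

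The luminal cells were ordered further by their counts of Prlr, Stc2 and Gpx3, a measure that also grows with the depth of a cell. In the 448 luminal cells with none of these counts Tgfb2 was at 50.4 CPM, and in the 202 cells with 1 or 2 it was at 64.6 CPM. In the 116 cells with 3 to 9 counts, which the rule still placed in LP, it was at 6.63 CPM (0.802 to 23.9), within the range of the ML cells. Bambi had the same step, from 147 and 131 CPM to 36.4 CPM (18.2 to 65.2). Genes of LP identity stepped down in these cells as well. Elf5 was at 421, 397 and 136 CPM in the 3 groups, Kit at 54.6, 55.6 and 16.6 CPM, and Csn3 at 6928, 7667 and 3306 CPM. Tgfb3 was at 234 CPM in both of the first groups, 123 CPM (86.3 to 169) in the third and 51.1 to 62.4 CPM in the ML groups. Cyr61 fell in smaller steps, from 2067 CPM (1986 to 2150) and 1767 CPM (1667 to 1871) to 1448 CPM (1315 to 1590) in the third group. It fell further within the ML class, from 663 CPM at 10 to 29 counts to 392 CPM at 60 or more. Tgfb1 ran the other way, from 41.1 CPM to 91.4 CPM. Tgfbr2 was highest at 43.1 CPM (32.4 to 56.2) in cells with 10 to 29 counts, against 23.0 CPM (16.6 to 31.1) at 60 or more. Both neighbouring groups had intervals that overlapped this highest one. Their levels were 23.2 CPM (9.32 to 47.8) at 3 to 9 counts and 29.2 CPM (19.7 to 41.7) at 30 to 59. The 10 ML cells with few keratin counts were not in these groups. The cells with 3 to 9 counts were shallower than their neighbours, with a median of 1926 counts.

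**Figure D2:**
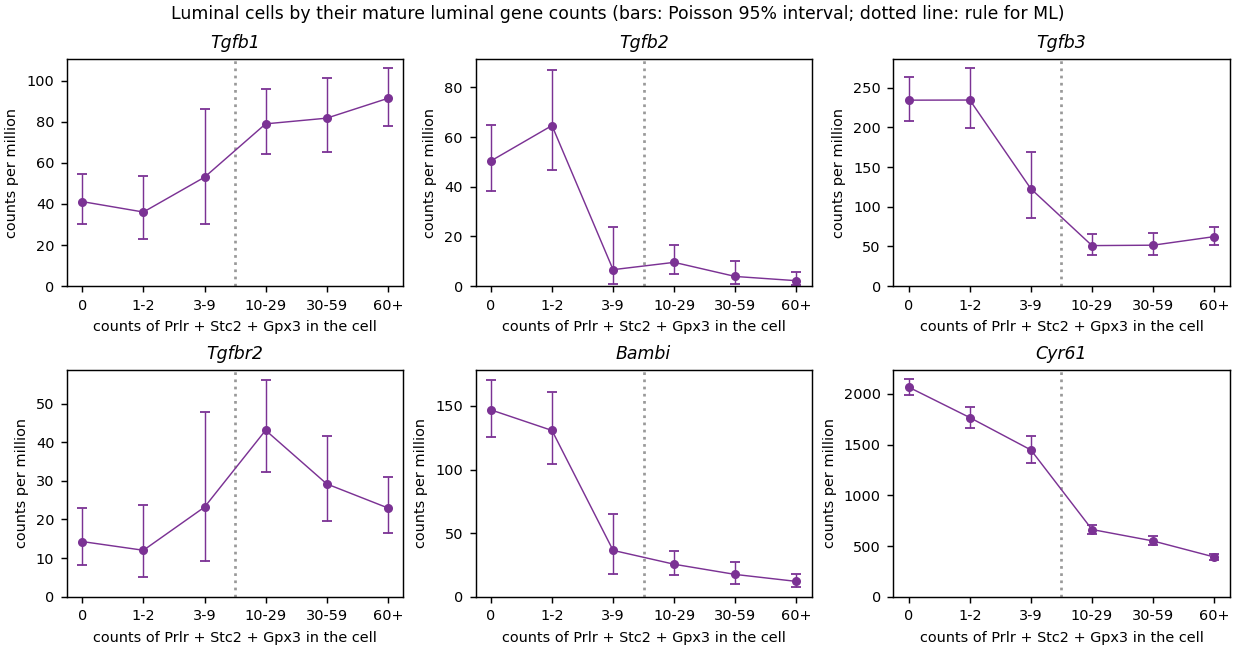
Levels (CPM, linear axis) of Tgfb1, Tgfb2, Tgfb3, Tgfbr2, Bambi and Cyr61 in LP and ML cells grouped by their summed counts of Prlr, Stc2 and Gpx3, with Poisson 95% intervals as bars and the ML threshold as a dotted line. Tgfb2 and Bambi are already low in the 116 LP cells with 3 to 9 counts. Cyr61 falls less, from 2067 CPM in cells with none of these counts to 1448 CPM there. The 10 ML cells with few keratin counts are left out.

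The receptors had few counts, and their classes differed from those of the ligands. Tgfbr1, the type I receptor (chromosome 4, 47353222 to 47414931, + strand), was at 23.8 CPM (18.3 to 30.4) in basal cells, 10.7 CPM (6.75 to 16.0) in LP cells and 5.81 CPM (3.72 to 8.64) in ML cells. The basal level was 2.23-fold the LP level (1.36 to 3.77) and 4.09-fold the ML level (2.52 to 6.85). The LP and ML levels could not be told apart, at a ratio of 1.83 (0.990 to 3.39). The 97 stromal cells had 0 counts of Tgfbr1, with an exact upper limit of 23.1 CPM, which lies within the basal interval. With this 0 replaced by 3 counts (18.8 CPM), the basal level was 1.27-fold the stromal level, short of the 2-fold limit. The size of any difference between these classes was therefore not resolved.

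Tgfbr2, the type II receptor that binds ligand first (chromosome 9, 116084293 to 116175360, - strand), had nearly the reverse order. It was at 100.02 CPM (57.2 to 162) in the stromal class, 32.2 CPM (26.9 to 38.1) in ML cells, 14.8 CPM (10.1 to 20.9) in LP cells and 13.6 CPM (9.51 to 18.8) in basal cells. The stromal level was 7.37-fold the basal level (3.82 to 13.6), and 12 of the 16 stromal counts were in the 34 cells with collagen counts, where the level was 187 CPM (96.5 to 326). ML cells had 2.37-fold the basal level (1.63 to 3.53), and from all counts the LP and basal levels were indistinguishable at a ratio of 1.09 (0.657 to 1.81). At equal depth Tgfbr2 was found in 1.96% (1.10 to 3.21) of LP and 0.703% (0.322 to 1.33) of basal cells, intervals that overlap. Over the alternative settings its log2 ratio of basal against LP cells ran from -1.51 to 0.07. Without the 10 ML cells that had few keratin counts, the log2 ratio of LP against ML cells for Tgfbr2 was -1.05, against -1.12 with them.

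Tgfbr3, or betaglycan, is a co-receptor that presents ligand, above all Tgfb2, to the type II receptor (chromosome 5, 107106570 to 107289629, - strand). It was the most basal of the receptors, at 60.7 CPM (51.7 to 70.8) in basal cells against 3.24 CPM (1.30 to 6.68) in LP cells and 2.18 CPM (0.996 to 4.13) in ML cells. These are 161, 7 and 9 counts. The basal level was 18.7-fold the LP level (8.88 to 47.3) and 27.9-fold the ML level (14.3 to 62.1). The stromal class had 31.3 CPM (10.1 to 72.9) on 5 counts, an interval that includes the basal level. The gene overlaps 3 other annotated genes on its strand, Gm43422, Gm43423 and Gm42900, and reads in the overlaps may have been left uncounted.

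The counts were too sparse to show how often ligand and receptor were expressed in the same cell. After thinning to 802 counts, a ligand was found in 8.75% of basal cells, 18.9% of LP cells and 11.5% of ML cells, and Tgfbr1 or Tgfbr2 in 2.58%, 2.61% and 3.88%. Both were counted in 0 basal, 2 LP and 3 ML cells, and at shares this low joint counts are rare whatever the expression. Among the 112 basal cells with a ligand, 0 had Tgfbr1 or Tgfbr2, with an upper bound of 3.24%, and among the 1168 cells without a ligand the share was 2.83%, so no difference was detectable at this depth.

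Both inhibitors were highest in basal cells but differed in the luminal classes. Smad7, which blocks the activated type I receptor, was at 183 CPM (167 to 200) in basal cells, 62.5 CPM (29.98 to 115) in the stromal class, 54.2 CPM (44.8 to 65.0) in LP cells and 46.0 CPM (39.7 to 53.0) in ML cells. The basal level was 3.37-fold the LP level (2.75 to 4.17) and 3.98-fold the ML level (3.36 to 4.73), and the 3 lower classes overlapped. A count of Smad7 was found in 28.8% of basal cells, 13.4% of LP cells and 12.3% of ML cells, and at equal depth in 13.1%, 3.92% and 3.35%. Its counts were spread over cells close to a Poisson model, with a variance of 1.09 times the mean in thinned basal cells.

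Bambi, a pseudoreceptor that lacks a kinase domain, fell in 2 steps. Its level was 423 CPM (398 to 448) in basal cells, 126 CPM (112 to 142) in LP cells and 17.7 CPM (13.8 to 22.2) in ML cells. The basal level was 3.34-fold the LP level (2.93 to 3.83), and the LP level was 7.16-fold the ML level (5.51 to 9.40). The stromal class was at 244 CPM (173 to 333). Within it Bambi was at 459 CPM (220 to 844) in the 17 cells with endothelial genes and at 556 CPM (335 to 869) in the 30 remaining cells with basal genes, against 93.4 CPM (34.3 to 203) in cells with collagen counts. Bambi varied more between basal cells than a Poisson model gives, with a variance of 2.05 times the mean after thinning and 40 counts in the highest cell. The tenth of basal cells with the most counts held 55.5% of those of Bambi and 50.5% of those of Smad7.

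**Figure D3:**
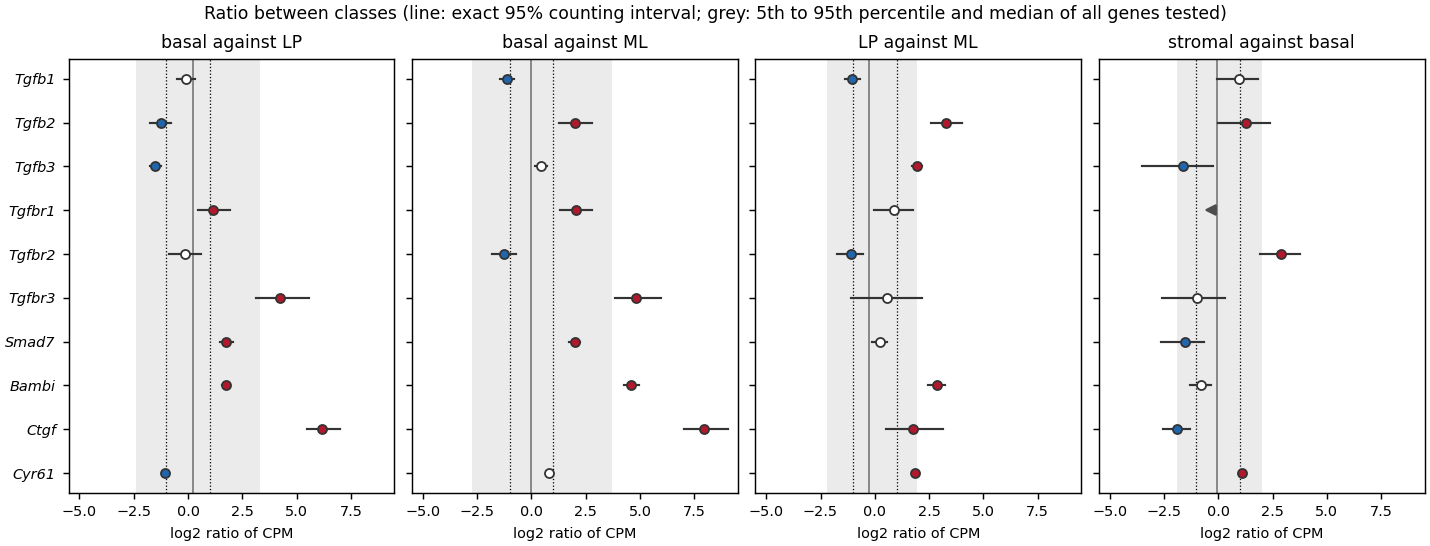
Log2 ratio of CPM for each gene in 4 comparisons of classes, with exact 95% counting intervals as lines, dotted lines at 2-fold, and the median and the 5th to 95th percentile of all genes tested in grey. Filled points differ 2-fold or more (red higher, blue lower). The triangle marks Tgfbr1, which had 0 stromal counts, a level replaced by 3 counts in ratios. Ctgf and Tgfbr3 lie beyond the grey range in basal cells against LP and ML cells.

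The 2 CCN genes, which are commonly read as a pair, had different patterns. Ctgf, or Ccn2 (chromosome 10, 24595442 to 24598683, + strand), was at 533 CPM (506 to 562) in basal cells, 144 CPM (91.1 to 216) in the stromal class, 7.41 CPM (4.24 to 12.0) in LP cells and 2.18 CPM (0.996 to 4.13) in ML cells. The basal level was 71.9-fold the LP level (44.1 to 126) and 245-fold the ML level (129 to 537). Mylk, a contractile basal gene of nearly the same level in basal cells (534 CPM), served as a gauge of counts outside the class of origin. A count of Mylk was found in 0.706% of ML cells, as was a count of Ctgf, at 1.94 and 2.18 CPM. The ML level was 0.408% of the basal level for Ctgf and 0.363% for Mylk. It was 0.232% for Cxcl14, 0.198% for Myl9 and 0.270% for Cnn1, further basal genes outside the rule. The ML counts of Ctgf were thus close to the Mylk gauge, slightly above all 4 genes, and are not read as expression. The source of these counts was not tested. In LP cells Ctgf had 16 counts, 6 of them in 1 cell, and was found in 1.44% of cells against 0.392% for Mylk. Of the 23 stromal counts, 15 were in the 30 cells that carried basal genes.

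Cyr61, or Ccn1 (chromosome 3, 145646976 to 145649981, - strand), was found in every class. It was at 1975 CPM (1764 to 2206) in the stromal class, 1888 CPM (1830 to 1947) in LP cells, 913 CPM (877 to 950) in basal cells and 527 CPM (505 to 550) in ML cells. The stromal and LP intervals overlap, and the LP level was 2.07-fold the basal level (1.97 to 2.17) and 3.58-fold the ML level (3.40 to 3.77). A count was found in 60.4% of LP cells, 49.6% of basal cells and 32.2% of ML cells, and at equal depth in 44.8%, 32.8% and 18.3%. Within the stromal class the cells with collagen counts had 3363 CPM (2930 to 3843), in 30 of 34 cells. In LP cells Cyr61 had the largest ratio of variance to mean of the 10 genes, a measure that can grow with level. There 1 cell had 83 counts and the variance after thinning was 7.37 times the mean. The ratio for Cyr61 was 3.49 in basal cells and 2.83 in ML cells. By another measure Cyr61 was not the most uneven. The tenth of LP cells with the most counts held 55.7% of those of Cyr61, 49.4% of those of Tgfb3 and more for each other gene.

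The Cyr61 promoter is shown because the gene was widely expressed while its partner was basal. It lies at chr3:145649936-145650235 (- strand, RefSeq, GRCm38.p6), and capitals mark a match to the TEAD letters CATTCC, the motif through which YAP and TAZ act.
Cyr61: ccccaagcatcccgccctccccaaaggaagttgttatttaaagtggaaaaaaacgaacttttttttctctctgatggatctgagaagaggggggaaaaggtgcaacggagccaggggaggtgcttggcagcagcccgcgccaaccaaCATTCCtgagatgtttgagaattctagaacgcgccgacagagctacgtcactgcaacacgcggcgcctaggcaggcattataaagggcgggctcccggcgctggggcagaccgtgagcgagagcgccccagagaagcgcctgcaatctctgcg
There is 1 match in the window, starting at position -103 from the start site, and no match to the AP-1 letters TGANTCA, to CAGACA or to the CArG box on either strand. The TEAD letters occur in 14.7% of all promoters of the table, the AP-1 letters in 7.81% and the CArG box in 1.63%. Absence of these letters says nothing of regions outside the window.

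**Figure D4:**
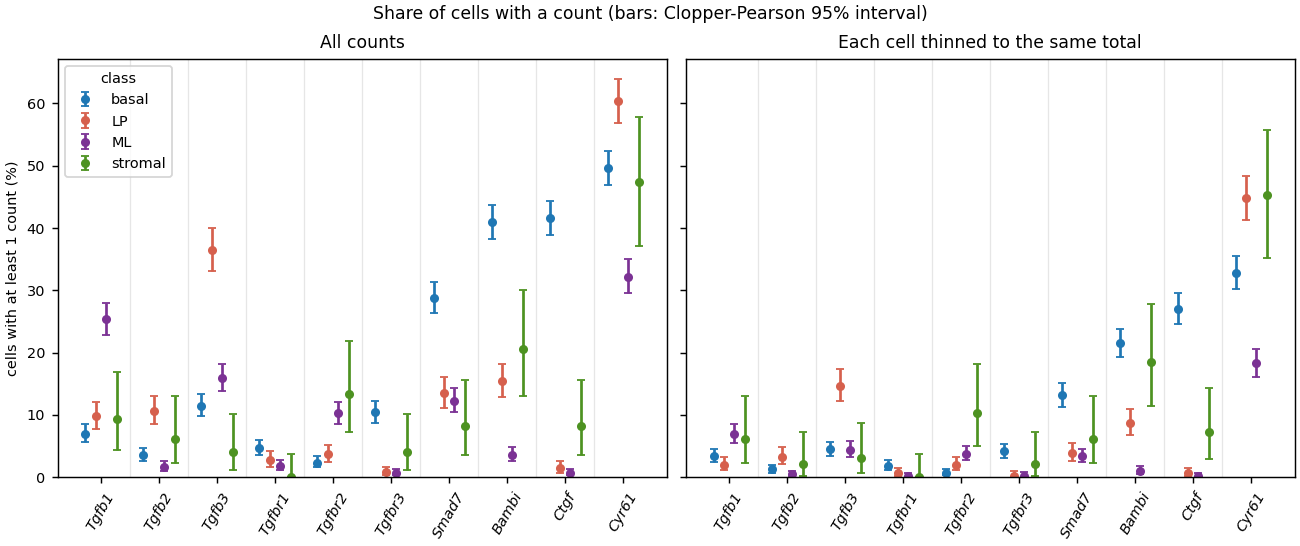
Share of cells with at least 1 count of each gene (%), from all counts (left) and after thinning every cell to 802 counts (right), by class, with Clopper-Pearson 95% intervals as bars. At equal depth Ctgf is found in 27.0% of basal cells and under 1% of LP and ML cells, and Cyr61 in 44.8% of LP cells.

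In basal cells the CCN genes occurred together. Among thinned basal cells with a count of Cyr61, 37.9% (33.2 to 42.7) also had Ctgf, against 21.7% (19.0 to 24.7) of those without. Cells were also divided at the median of their summed immediate-early gene counts (Fos, Fosb, Jun, Junb, Egr1, Atf3, Ier2 and Ier3), which respond within minutes to stimuli such as tissue dissociation. Cyr61 was found in 45.6% (41.6 to 49.6) of basal cells above the median and 20.8% (17.8 to 24.1) of the others. The corresponding shares were 49.1% (43.8 to 54.5) and 41.1% (36.3 to 46.0) in LP cells, where the intervals overlap, and 23.3% (19.8 to 27.1) and 13.8% (11.2 to 16.8) in ML cells. Ctgf was found in 33.7% and 20.8% of basal cells, and Smad7 in 12.9% and 13.4%, with no difference beyond the intervals. The summed immediate-early level was 32953 CPM in basal, 25257 CPM in LP, 23261 CPM in ML and 31749 CPM in stromal cells. Junb alone gave 15268 CPM of the basal sum. Singly, Fos, Fosb, Junb and Egr1 were higher in basal than LP cells, and Jun, Atf3, Ier2 and Ier3 were higher in LP cells. The part of dissociation in these levels was not tested.

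Other genes of the pathway were counted from lists, and a wide group of matrix and latency genes was higher in basal cells. Of 17 genes for ligand latency and activation, 16 had enough counts in basal and LP cells, 10 were higher in basal cells and 1 was lower, beside 22.3% and 12.3% of all genes, with a median log2 ratio of 1.84 beside 0.23 for all genes. They included the proteoglycans Fmod (125 against 0.463 CPM) and Bgn (200 against 2.32 CPM) and the protease Mmp2 (179 against 2.32 CPM). Against ML cells, 9 of 16 were higher in basal cells and 1 lower, beside 20.4% and 19.6% of all genes, with a median of 2.75 beside -0.03. Of the other receptors, 4 of 7 were higher in basal than LP cells and 1 was lower, beside the same 22.3% and 12.3%, with a median of 1.15. The largest ratios were those of the activin receptors Acvr2a (20.7 against 3.24 CPM) and Acvr1b (9.80 against 2.32 CPM) and the co-receptor Eng (12.1 against 2.32 CPM). These LP levels rested on 7, 5 and 5 counts. The receptor lower in basal than LP cells was Acvrl1, a type I receptor best known from endothelium, at 12.8 CPM in basal and 29.2 CPM in LP cells. Against ML cells, 2 of 7 receptors were higher in basal cells and 0 lower, beside 20.4% and 19.6% of all genes, with a median of 0.43. In ML cells Acvr2a was at 4.60 CPM, Acvr1b at 7.26 CPM and Eng at 15.2 CPM. In LP cells Acvrl1 was also 4.02-fold its level in ML cells (2.56 to 6.43).

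The signal transduction list was nearer to the background. Of 17 such genes with enough counts, 5 were higher in basal than LP cells and 1 was lower, beside 22.3% and 12.3% of all genes. The other 11 differed less than 2-fold, and the median log2 ratio was 0.25 beside 0.23 for all genes. The inhibitory Smad6 had 30 counts in basal and 0 in LP cells. With this 0 replaced by 3 counts, its basal level was 8.14-fold the LP level, and the exact interval of the ratio started at 6.22. The co-repressor Ski was at 79.2 against 24.6 CPM. The ubiquitin ligase Nedd4l was 3.82-fold higher in LP cells (64.9 against 17.0 CPM). Of the genes often used as TGF-β response markers, 7 of 12 were higher in basal than LP cells and 1 was lower, beside 22.3% and 12.3% of all genes, with a median of 2.70. The largest ratios were those of Tgfb1i1 (183 against 0.927 CPM), Postn (665 against 5.56 CPM) and Sparc (1892 against 20.4 CPM), matrix and adhesion genes that also mark basal cells. Id1 and Id3, both known targets of the related BMP pathway, ran in opposite directions between the luminal classes. Id1 was at 252 CPM in LP and 30.7 CPM in ML cells, and Id3 at 74.1 and 543 CPM.

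Among the other CCN and YAP/TAZ pathway genes, 7 of 14 were higher in basal than LP cells and 3 were lower, beside 22.3% and 12.3% of all genes, with a median of 1.07. Ankrd1, a YAP target like Ctgf, had 77 counts in basal cells and 0 in LP and ML cells. With each 0 replaced by 3 counts, its basal level was 20.9-fold the LP level and 40.0-fold the ML level. The exact intervals of these ratios started at 16.6 and 31.8. The receptor kinase Axl was at 110 CPM in basal, 4.17 CPM in LP and 5.81 CPM in ML cells. Wisp2, a further CCN gene, had the LP preference of Cyr61 in stronger form, at 281 CPM in LP, 38.2 CPM in ML and 26.0 CPM in basal cells. Of the 8 immediate-early genes, 1 was higher in basal than LP cells and 0 were lower, beside 22.3% and 12.3% of all genes. The other 7 differed less than 2-fold. The largest ratios were those of Egr1 (1028 against 499.9 CPM), Junb (15268 against 8463 CPM) and Jun (2134 against 3662 CPM).

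Genes of like pattern were sought by the share of each class in the sum of the 4 class levels, among 9130 genes with 50 or more counts, by Euclidean distance over the 4 classes. The nearest to Ctgf were Fam129a, at a distance of 0.0110, Spon2 (0.0202) and Wif1 (0.0219). Those nearest to Smad7 were Mia (0.00581), Kitl (0.00646) and Prkacb (0.00898). The nearest to Tgfb3 were Mbd1 (0.0240), Hivep3 (0.0305) and Il15ra (0.0378), and to Tgfbr3 Rgl1 (0.0186), Luzp2 (0.0243) and Camk4 (0.0255). Those nearest to Bambi were P2rx7 (0.0248), Dapk2 (0.0319) and Taf4b (0.0374), and to Cyr61 Prkaa2 (0.0305), Arl4a (0.0331) and Tex2 (0.0341). Those nearest to Tgfb1 were Nudt18 (0.0130), Dnajc30 (0.0130) and Mrpl41 (0.0169), and to Tgfb2 St6galnac6 (0.0322), Mob3b (0.0397) and Syt11 (0.0454). The nearest to Tgfbr1 were 4930579G24Rik (0.00417), Abhd3 (0.0222) and Kif21a (0.0266), and to Tgfbr2 Ablim1 (0.0233), Trappc9 (0.0333) and Arhgap18 (0.0386). With 4 points from 1 library, likeness describes these levels only.

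The stromal class was set beside basal cells over all 10 genes. Of these, 3 were higher in the stromal class (Tgfb2, Tgfbr2 and Cyr61), beside 16.1% of all 8499 genes with enough counts, and 3 were lower (Tgfb3, Smad7 and Ctgf), beside 16.3%. Tgfb2 rested on 8 stromal counts, at a ratio of 2.46 (1.01 to 5.19), and Tgfb3 on 4, at 0.325 (0.0877 to 0.845). Tgfb1 was at a ratio of 1.93 (0.966 to 3.52). Among the other receptors the class had Eng at 100.02 CPM and Acvrl1 at 75.0 CPM, against 12.1 and 12.8 CPM in basal cells.

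The sorted basal library gave a further view of basal cells, from other cells of the same strain and age. All 4771 of its cells were used, without the class rule. Their median count of Krt5, Krt14 and Acta2 together was 7, against 55 in the basal cells chosen by the rule. This measure also grows with the depth of a cell. Of the sorted cells, 3918 had 3 or more such counts. Levels in the sorted library were 86.0 CPM (74.9 to 98.3) for Tgfb1, 43.8 CPM (36.0 to 52.8) for Tgfb2 and 227 CPM (208 to 246) for Tgfb3. These intervals hold the ML level of Tgfb1 (84.9 CPM) and the LP levels of Tgfb2 (48.6 CPM) and Tgfb3 (219 CPM). All 3 ligands were higher than in the basal cells of the total epithelial library, at ratios of 2.21 (1.74 to 2.83), 2.15 (1.54 to 3.04) and 2.95 (2.51 to 3.47). In that comparison 29.1% of all 10114 genes were higher in the sorted library, and the median log2 ratio of all genes was 0.47, and with TMM factors 1 ligand, Tgfb3, stayed 2-fold higher. Of the 10 genes, Bambi alone was lower 2-fold or more, at 156 CPM (141 to 172) against 423 CPM, or 2.71-fold (2.41 to 3.05), beside 15.4% of all genes. The LP level of Bambi was 126 CPM (112 to 142). Smad7 (201 CPM), Tgfbr3 (76.7 CPM) and Cyr61 (1126 CPM) were at ratios of 1.10, 1.26 and 1.23 to their levels in the basal cells of the total epithelial library, and Ctgf was 1.75-fold higher (1.64 to 1.87) at 934 CPM.

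The same contrast was made at equal depth, with cells of both libraries thinned to 400 counts, which left out 1594 sorted cells. Bambi was then found in 4.09% (3.43 to 4.84) of sorted cells and 12.7% (10.9 to 14.6) of basal cells of the total epithelial library. Tgfb3 was found in 7.49% (6.60 to 8.46) and 2.81% (1.98 to 3.87), and Ctgf in 21.7% (20.3 to 23.2) and 16.0% (14.05 to 18.1). The sorted library had less of the 7 basal markers outside the class rule than those basal cells (12398 against 18100 CPM). It also had less of the summed LP markers (1914 against 3154 CPM) and more of the 8 fibroblast markers (421 against 34.7 CPM). Its immediate-early level was 39543 CPM. The part of the sort, of depth and of other cells in these differences was not tested, and sort and library cannot be told apart.

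**Figure D5:**
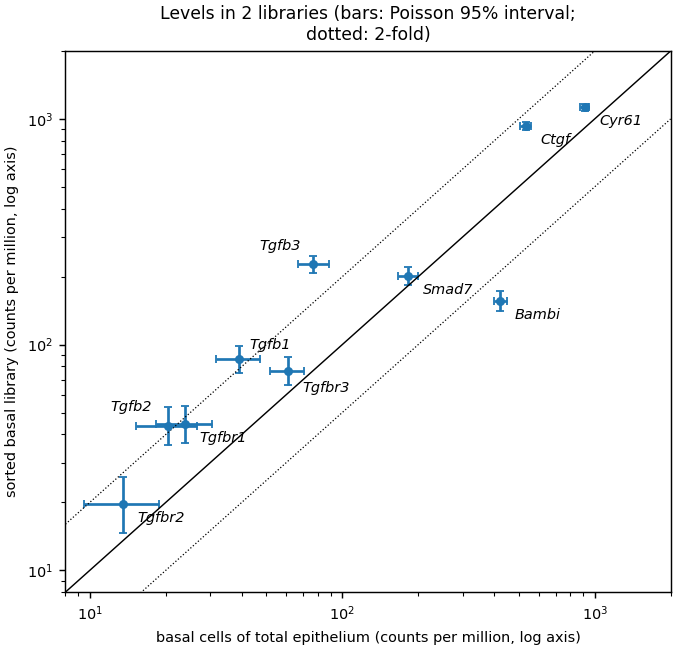
Level of each gene (CPM, log axes) in the sorted basal library against the basal cells of the total epithelial library, with Poisson 95% intervals as bars, the line of equality and dotted lines at 2-fold. The 3 ligands lie above the upper dotted line and Bambi lies below the lower one, at 156 against 423 CPM.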

How the data were processed

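Reads were counted by the authors with Cell Ranger (version 1.2.1 in the submitters' processing notes, another version in the study's methods) and the mm10 genome, and deposited raw counts of unique molecules for each gene and cell barcode. The annotation release is not given in the sources used here. Barcodes that hold cells were chosen upstream, and all of them were used. No doublet caller was run. The total epithelial library held 3302 cells and the sorted basal library 4771, with class totals of 159975 to 4132895 counts, so 3 counts were 0.726 to 18.8 CPM. Because molecules are tagged at the 3′ end, levels do not scale with transcript length. Ltbp4, Tgfb1i1 and Tead2 have 2 rows each, which were summed.

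Counts were summed by class, divided by the class total over all genes and given as CPM. A level of 0 was replaced by 3 counts in ratios. Intervals are exact Poisson, Clopper-Pearson and conditional binomial, at 95%. Single-cell thinning drew counts without replacement (seed 1). No p-values were computed, since there is 1 library per condition. The 10 genes, the gene lists and the class rule were chosen with earlier results of these data known. All 10 genes are named, with the 3 genes of nearest pattern to each and, for basal against LP cells, the 3 largest ratios of each list; of the other comparisons some of these are named. The ratio of Acvrl1 between basal and LP cells and the levels of Id3 were added after their values were seen. The scripts were tested on simulated data. Promoters of 5 of the genes were in the RefSeq table. Positions are from GENCODE on GRCm38. Python 3.11.15, numpy 2.4.6, scipy 1.17.1, pandas 2.3.3, matplotlib 3.10.9, and edgeR 4.0.16 under R 4.3.3 (TMM factors, an alternative only) were used.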

Additional observations from a re-analysis of the deposited data

How the results depend on the processing

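The number of genes past 2-fold in each direction was recomputed under 22 alternatives, 4 of them chosen after seeing the data, and 200 of 220 such counts stayed within 1.5 times the reported one. Those higher in basal cells against LP or ML cells, and higher in LP against ML cells, never moved further than that. The weakest were the 2 genes higher in ML than LP cells, Tgfb1 and Tgfbr2: this count of 2 was 1 after thinning and without cells over 2 times the class median, and 0 with TMM factors, with median-of-ratios factors, with class thresholds of 20 counts and at 3-fold. The 3 genes higher in the sorted library became 5 after thinning and at 1.5-fold, 1 with TMM or median-of-ratios factors (Tgfb3), and 0 at 3-fold, where the 1 lower gene also became 0. The 3 genes lower in the stromal class became 5 with TMM factors and at 1.5-fold, and the 3 higher became 1 at 3-fold or with 100 or more counts. The 3 genes higher in LP than basal cells became 1 with thresholds of 20 counts and 0 at 3-fold, and the 2 higher in ML than basal cells became 1 and 0. Changes of the fold limit and of the minimum count act by construction. For the other settings the cause was not tested. Of 900 single ratios 817 stayed within the reported interval. The sign changed in 20, of which 19 were of ratios under 2-fold (Tgfb1, Tgfbr1, Tgfbr2, Tgfbr3, Smad7 and Cyr61). The other was Ctgf in LP against ML cells, at a log2 ratio of -0.27 when the 26 cells of both rules were put with ML. No paired analysis was possible because each condition has 1 library and no test was made. Genes with under 20 counts in a class, such as Tgfbr3 in luminal cells, and the 97 stromal cells are limited by depth.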
